A study of Mus musculus with 9 samples.

Results

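The genes described here encode the cargo of neutrophils. They are the calprotectin subunits *S100a8* and *S100a9*, the neutrophil collagenase *Mmp8*, the histamine-forming enzyme *Hdc*, the secreted protein gene *Retnlg*, the specific granule genes *Camp*, *Ngp* and *Ltf*, and the azurophil granule genes *Mpo* and *Elane*. A gene was represented by the probe set annotated to its symbol alone that had the highest mean over the 9 arrays, and this gave 9 of the 10 genes, out of 17097 genes with a probe set of their own. *Retnlg* had no such probe set and was not analysed here. The genes were divided by what is known of their use during neutrophil maturation into 4 genes of mature neutrophils (*S100a8*, *S100a9*, *Mmp8* and *Hdc*), 3 specific granule genes and 2 azurophil granule genes, and the last 5 are called early granule genes below.

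Neutrophils form their granules in bone marrow. The messages for azurophil granule proteins, such as myeloperoxidase and neutrophil elastase, are made in promyelocytes, and those for specific granule proteins, such as lactoferrin and cathelicidin, in myelocytes and metamyelocytes. Circulating neutrophils carry these proteins with little of the message, whereas calprotectin, a calcium and zinc binding heterodimer of S100A8 and S100A9, is abundant in their cytosol and its messages persist in the mature cell. Monocytes also express the calprotectin genes.

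The tissue was a block of brain around the site of injection into the striatum of male C57Bl/6J mice aged 10-12 weeks, taken from the injected hemisphere after the circulation had been rinsed with saline. The groups were mice 4 d after lipopolysaccharide (LPS 4 d), mice 1 d after lipopolysaccharide (LPS 1 d) and mice 4 d after phosphate-buffered saline (PBS), with 3 Affymetrix HT mouse genome arrays in each group. Each array held RNA of 3 mice pooled in equal amounts, and replicate error is therefore that of pools, not of single animals. No PBS array from 1 d was analysed here, and at that time the injury of the injection cannot be told apart from the response to LPS. Values are log2 expression after robust multi-array averaging (RMA). The array medians lay between 4.32 and 4.37, and arrays correlated at 0.992 to 0.994 within groups and at 0.981 to 0.990 between groups, so no array stood apart by these whole-array measures. Such measures do not show whether an array stands apart for single genes. A level at or below 3.49, the highest mean among 23 nonspecific control probe sets, was called background, as were the means of 5344 genes (31.3%). All 7 striatal neuron markers analysed were above background in each group, and 0 of them passed a test between groups. A gene was called where limma, fitted to the 9 arrays, gave a fold change of at least 1.5 and a p under 0.05 after Benjamini-Hochberg adjustment over 45037 probe sets.

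The promoters of 4 of the genes are shown because they set the calprotectin pair, which had the largest changes, beside *Camp* and *Ngp*, for which no change was called. Each sequence is the 250 bases before the RefSeq transcript start in mouse build GRCm38.p6, read 5′ to 3′ on the gene's own strand, at chr3:90668821-90669070 (+ strand) for *S100a8*, chr3:90695722-90695971 (− strand) for *S100a9*, chr9:109849457-109849706 (− strand) for *Camp* and chr9:110419558-110419807 (+ strand) for *Ngp*. Capitals mark matches to motifs of regulators of granulocyte genes, TTNNGNAA for the C/EBP family and AGGAAGT for PU.1, searched on both strands.
S100a8: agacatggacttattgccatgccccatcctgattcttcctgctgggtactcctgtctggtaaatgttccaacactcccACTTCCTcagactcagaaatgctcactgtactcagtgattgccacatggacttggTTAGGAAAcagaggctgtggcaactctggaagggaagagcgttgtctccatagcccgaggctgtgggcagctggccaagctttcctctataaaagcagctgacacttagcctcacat
S100a9: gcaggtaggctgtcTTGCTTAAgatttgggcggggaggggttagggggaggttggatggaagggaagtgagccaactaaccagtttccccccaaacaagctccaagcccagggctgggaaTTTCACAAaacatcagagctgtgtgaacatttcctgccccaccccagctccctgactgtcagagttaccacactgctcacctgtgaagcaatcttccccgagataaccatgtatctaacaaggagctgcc
Camp: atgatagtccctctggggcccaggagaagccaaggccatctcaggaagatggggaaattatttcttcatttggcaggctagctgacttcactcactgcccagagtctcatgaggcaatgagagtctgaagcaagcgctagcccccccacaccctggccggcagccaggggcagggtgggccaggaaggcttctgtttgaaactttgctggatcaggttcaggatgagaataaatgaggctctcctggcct
Ngp: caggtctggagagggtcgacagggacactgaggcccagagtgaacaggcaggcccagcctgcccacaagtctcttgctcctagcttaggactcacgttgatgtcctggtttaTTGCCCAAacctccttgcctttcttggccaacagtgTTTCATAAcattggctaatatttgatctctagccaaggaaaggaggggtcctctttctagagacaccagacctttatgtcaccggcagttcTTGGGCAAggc
The *S100a8* promoter held a C/EBP match starting 117 bases before the start and a PU.1 match 172 bases before it. The *S100a9* promoter held C/EBP matches at 236 and 130 bases and no PU.1 match. The *Ngp* promoter held C/EBP matches at 138, 102 and 11 bases before the start, and the *Camp* promoter held no match to either motif. No match of one motif overlapped a match of the other. Among the 10 genes, 6 had a C/EBP match (*S100a8*, *S100a9*, *Retnlg*, *Mmp8*, *Ngp* and *Ltf*) and 4 a PU.1 match (*S100a8*, *Mmp8*, *Mpo* and *Elane*), while 36.8% and 7.69% of 32851 mouse promoters of the same length held the C/EBP and the PU.1 letters. A match is a description of the letters only, and C/EBP matches occurred in promoters of both the mature and the early granule genes. *S100a8* and *S100a9* lie side by side on chromosome 3, with 0 genes of the RefSeq table between them.

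The calprotectin genes were the most changed of the members, high on every array 1 d after LPS and intermediate at 4 d. *S100a9* had log2 levels of 6.98, 6.40 and 6.03 on the LPS 4 d arrays, 9.50, 11.08 and 10.30 on the LPS 1 d arrays, and 5.49, 3.22 and 4.56 on the PBS arrays. *S100a8* had log2 levels of 7.84, 6.28 and 6.89 on the LPS 4 d arrays, 9.45, 10.83 and 9.99 on the LPS 1 d arrays, and 5.59, 3.24 and 4.67 on the PBS arrays. For both genes the 3 groups did not overlap, and the arrays of LPS 4 d lay between the other groups. The PBS arrays were the most widely spread, with replicate 2 below background and replicate 1 the highest for both genes, over a log2 range of 2.26 for *S100a9* and 2.35 for *S100a8*. On the linear scale *S100a9* averaged 92.1 ± 31.0 at LPS 4 d, 1385 ± 730 at LPS 1 d and 25.9 ± 17.8 after PBS, and *S100a8* averaged 142 ± 78.5 at LPS 4 d, 1180 ± 578 at LPS 1 d and 27.7 ± 19.5 after PBS (SD, n = 3 arrays each).

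**Figure D1:**
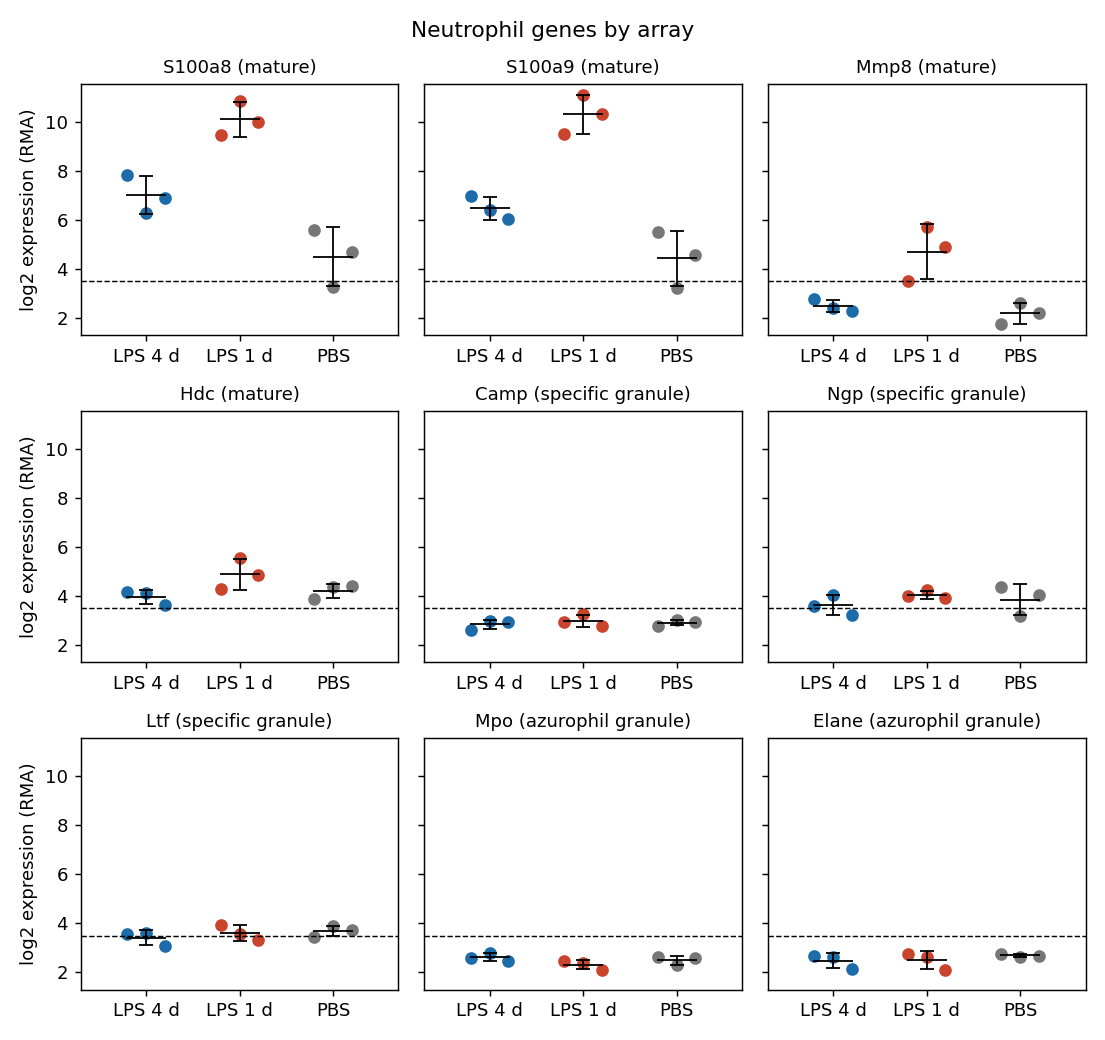
Log2 expression (RMA) of the 9 genes on each array, with LPS 4 d, LPS 1 d and PBS from left to right; points are arrays in replicate order, horizontal bars and whiskers are means ± SD (n = 3), and the dashed line is the background level of 3.49. *S100a8*, *S100a9* and *Mmp8* stood highest on the LPS 1 d arrays, while *Camp*, *Mpo* and *Elane* lay under the dashed line on every array.

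Compared to PBS, *S100a9* rose 58.5-fold at 1 d after LPS, a log2 change of 5.87 (SE 0.57, 95% interval 4.59 to 7.15, adjusted p = 0.000336 from limma). *S100a8* rose 48.2-fold, a log2 change of 5.59 (SE 0.61, 95% interval 4.20 to 6.98, adjusted p = 0.000777 from limma). Both calls held under each of the other settings tried, and without any single array. The sizes rested in part on PBS replicate 2, without which the changes were 5.27 for *S100a9* (38.6-fold) and 4.96 for *S100a8* (31.1-fold). Of the 9 genes, 3 were called higher at 1 d and 0 lower, where 3.86% of all genes were called higher and 0.532% lower. The third was *Mmp8*, described below. For 3 of the 9 genes, those that were called, the LPS 1 d arrays all lay above the PBS arrays, against 11.5% of all genes. In bulk tissue of this kind, fewer cells of a type and less RNA per cell cannot be told apart.

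At 4 d after LPS the calprotectin genes were lower than at 1 d. The log2 change of *S100a9* between the times was −3.82 (SE 0.57, 95% interval −5.11 to −2.54, adjusted p = 0.00827 from limma), and this call held without any single array but not in an ordinary analysis without moderation (adjusted p = 0.0759). The log2 change of *S100a8* was −3.09 (SE 0.61, 95% interval −4.47 to −1.70, adjusted p = 0.0349 from limma). That call was lost when 1 of 6 arrays was left out, although the change stayed between −3.50 and −2.72. Its adjusted p from limma was 0.105 without LPS 4 d replicate 2, 0.107 without LPS 4 d replicate 3, 0.0538 without LPS 1 d replicate 1, 0.13 without LPS 1 d replicate 2, 0.0992 without LPS 1 d replicate 3 and 0.064 without PBS replicate 3. Of the rise of the linear mean over PBS at 1 d, 9.92% was left at 4 d for *S100a8* and 4.87% for *S100a9*. On the log2 scale the share left was 44.8% for *S100a8* and 34.9% for *S100a9*.

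Whether calprotectin expression at 4 d was still above PBS was not settled by the test. All 3 LPS 4 d arrays lay above all 3 PBS arrays for both genes, an order that 12.0% of all genes also showed. The log2 change compared to PBS was 2.50 for *S100a8* (SE 0.61, 95% interval 1.12 to 3.89, adjusted p = 0.0628 from limma) and 2.05 for *S100a9* (SE 0.57, 95% interval 0.77 to 3.33, adjusted p = 0.0974 from limma). Neither passed, so 0 of the 9 genes were called in this comparison, where 4.21% of all genes were called higher and 0.205% lower. Before adjustment limma gave 2 genes a p under 0.05, *S100a8* and *S100a9*, both higher at 4 d, a threshold that 10.6% of all genes passed as higher and 7.07% as lower. Without PBS replicate 1, the highest of the PBS arrays, *S100a8* changed by 3.05 (adjusted p = 0.0379 from limma) and *S100a9* by 2.58 (adjusted p = 0.0483 from limma), and both were called. Without PBS replicate 2, the lowest, the changes were 1.87 for *S100a8* (adjusted p = 0.144 from limma) and 1.45 for *S100a9* (adjusted p = 0.214 from limma), and no other array left out gave a call.

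**Figure D2:**
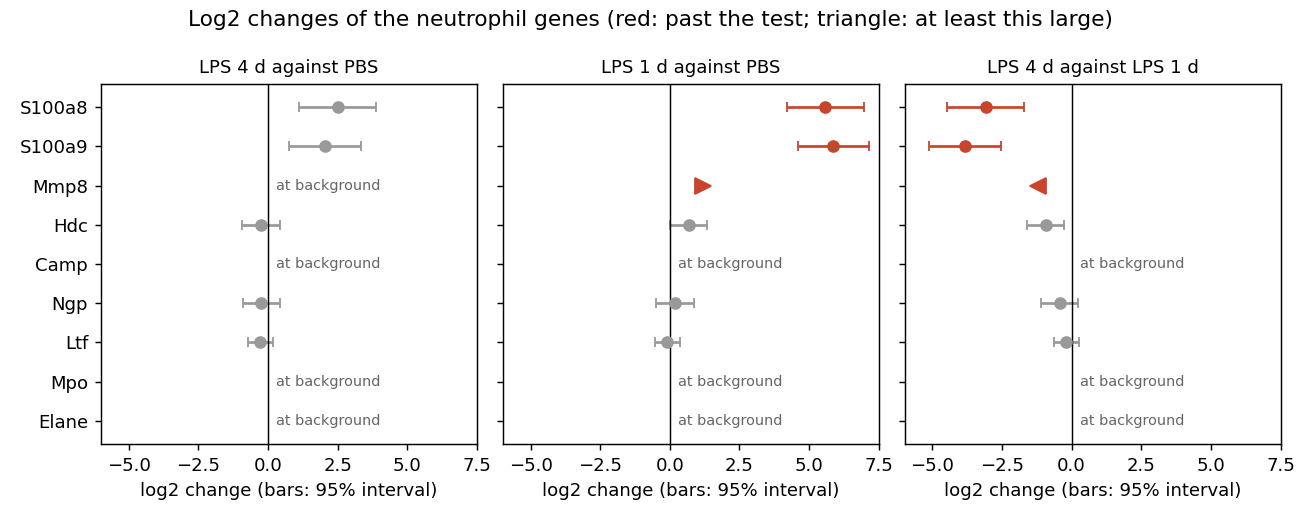
Log2 changes of the 9 genes in the 3 comparisons, with 95% intervals from limma; red marks a called change, a triangle is the smallest size that the background level allows, and "at background" stands where all arrays of both groups were at background. *S100a8* and *S100a9* were called at 1 d against PBS and at 4 d against 1 d, and at 4 d against PBS their intervals lie above 0 but the adjusted p values missed the threshold.

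The calprotectin genes had the same order of arrays within LPS 1 d and within PBS, but not within LPS 4 d. The log2 difference of *S100a8* minus *S100a9*, of which only the change from array to array can be read since the probe sets differ, was 0.86, −0.12 and 0.86 on the LPS 4 d arrays, −0.06, −0.25 and −0.30 on the LPS 1 d arrays, and 0.11, 0.02 and 0.11 on the PBS arrays. It was lowest at LPS 1 d, but LPS 4 d replicate 2 lay within the range of the LPS 1 d arrays and far from the other LPS 4 d arrays. Within LPS 1 d, replicate 2 was highest and replicate 1 lowest for *S100a8*, *S100a9*, *Mmp8* and *Hdc* alike, and within LPS 4 d replicate 1 was the highest for the same 4 genes. For *Hdc* this is by the probe set used. By a further *Hdc* probe set, described below, replicate 1 was highest and replicate 3 lowest within LPS 1 d. Over the 9 arrays, which fall into 3 groups, the Pearson correlation with *S100a9* was 0.988 for *S100a8*, 0.869 for *Mmp8*, 0.643 for *Hdc*, 0.443 for *Ngp* and −0.151 for *Ltf*. Among 12064 genes with a mean above background in at least 1 group, a filter that a gene high in a single group passes, the genes whose pattern was most like *S100a9* were *Gbp10*, an interferon-induced GTPase gene (0.991), *Fas*, a death receptor gene (0.986), *Hcar2*, the hydroxybutyrate receptor gene (0.985), *Parp10*, an ADP-ribosyltransferase gene (0.983), and *Samd9l* (0.982), beside *S100a8*. These correlations describe 9 arrays that share the same design and carry no test.

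**Figure D3:**
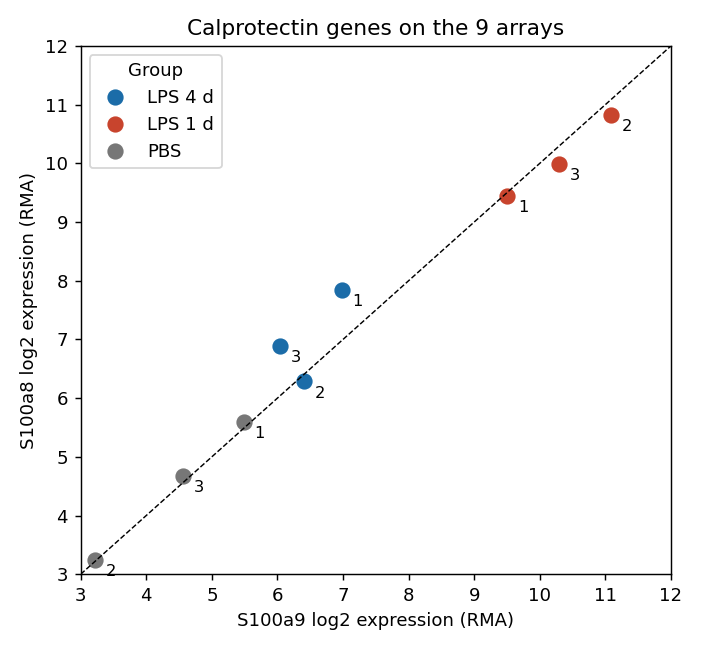
Log2 expression (RMA) of *S100a8* on the vertical axis against *S100a9* on the horizontal axis, 1 point per array, coloured by group and numbered by replicate, with the dashed line where both values are equal. The LPS 1 d arrays are at the upper right, the PBS arrays at the lower left, and the LPS 4 d arrays between them, with LPS 4 d replicates 1 and 3 farthest from the line at 0.86 above it.

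*Mmp8*, which encodes the collagenase of neutrophils and whose message marks late maturation in mouse, was above background at LPS 1 d alone. Its log2 levels were 2.77, 2.42 and 2.30 on the LPS 4 d arrays, 3.50, 5.70 and 4.90 on the LPS 1 d arrays, and 1.75, 2.59 and 2.21 on the PBS arrays. The 3 LPS 1 d arrays were above background, replicate 1 barely so, and the other 6 arrays were below it. With levels under background raised to it, *Mmp8* was at least 2.31-fold higher at 1 d than after PBS (adjusted p = 0.0183 from limma) and at least 2.31-fold lower at 4 d than at 1 d (adjusted p = 0.0477 from limma). The fitted changes, 2.52 at 1 d compared to PBS and −2.20 between the times, were 3.11 and −2.80 without LPS 1 d replicate 1. The 1 d call was lost without LPS 1 d replicate 3 (adjusted p = 0.0724 from limma), PBS replicate 1 (adjusted p = 0.0772 from limma) or PBS replicate 3 (adjusted p = 0.0657 from limma). The call between the times was lost without any single array other than LPS 1 d replicate 1, at adjusted p values up to 0.146 from limma. With both groups at background at 4 d, no fold compared to PBS is given.

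*Hdc* encodes histidine decarboxylase, which is made by neutrophils as well as by mast cells, basophils and histaminergic neurons. The probe set used had log2 levels of 4.15, 4.12 and 3.62 on the LPS 4 d arrays, 4.29, 5.55 and 4.84 on the LPS 1 d arrays, and 3.88, 4.36 and 4.40 on the PBS arrays. All 9 were above background, and LPS 1 d replicate 1 lay within the PBS range. The log2 change at 1 d compared to PBS was 0.68 (SE 0.30, 95% interval 0.01 to 1.35, adjusted p = 0.312 from limma), that at 4 d compared to PBS was −0.25 (SE 0.30, adjusted p = 0.725 from limma), and that between the times was −0.93 (SE 0.30, 95% interval −1.60 to −0.26, adjusted p = 0.196 from limma). None was called, although all LPS 4 d arrays were below all LPS 1 d arrays. A further *Hdc* probe set had log2 levels of 3.41, 3.31 and 3.19 at LPS 4 d, 4.51, 4.27 and 4.07 at LPS 1 d and 4.12, 3.90 and 3.79 after PBS. By that probe set *Hdc* was called lower at 4 d than at 1 d (at least 1.73-fold, adjusted p = 0.00493 from limma) and lower at 4 d than after PBS (at least 1.36-fold, adjusted p = 0.0315 from limma), and at 1 d it changed by 0.35 (adjusted p = 0.239 from limma). The direction at 1 d and between the times was the same for both probe sets, but the calls differed. Both end in a code for probes that match several transcripts, as does the probe set of *S100a8*. Of 11 mast cell and basophil markers, 8 were at background in every group (*Cpa3*, *Tpsb2*, *Tpsab1*, *Cma1*, *Mcpt4*, *Mcpt8*, *Fcer1a* and *Ms4a2*), and the summed linear level of the list was 222.8 to 254.6 at LPS 4 d, 184.3 to 195.6 at LPS 1 d and 193.1 to 220.6 after PBS. Most of that sum came from *Kit*, *Gata2* and *Hpgds*. At LPS 4 d, LPS 1 d and PBS the linear means were 104.7, 102.6 and 112.1 for *Kit* and 35.9, 39.0 and 36.6 for *Gata2*, neither called. For *Hpgds* they were 64.4, 16.0 and 19.9. *Hpgds*, a prostaglandin D synthase also made by macrophages, was the 1 marker of the list that was called, 1.71 higher on the log2 scale at 4 d than after PBS (adjusted p = 0.0337 from limma) and 2.13 higher at 4 d than at 1 d (adjusted p = 0.0165 from limma).

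Between the times 3 of the 9 genes, *S100a8*, *S100a9* and *Mmp8*, were called lower at 4 d and 0 higher, where 1.37% of all genes were called lower and 1.84% higher. This comparison shares the LPS 1 d arrays with that of LPS 1 d against PBS, so the counts are not independent of each other. For 4 of the 9 genes, *Hdc* included, the LPS 4 d arrays all lay below the LPS 1 d arrays, an order that 9.76% of all genes showed. The count of 3 was 1, *S100a9*, when LPS 4 d replicate 2, LPS 4 d replicate 3, LPS 1 d replicate 2, LPS 1 d replicate 3 or PBS replicate 3 was left out. The median log2 change of the 4 mature genes was 1.18 for LPS 4 d against PBS, 4.05 for LPS 1 d against PBS and −2.64 for LPS 4 d against LPS 1 d, where over all genes it was −0.02, −0.03 and 0.0024. With levels raised to background, the medians of the 4 genes in the same order were 0.98, 3.36 and −2.15.

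The early granule genes stayed at or near background, and for 0 of the 5 was a change called in any comparison. The specific granule gene *Ngp*, which encodes neutrophilic granule protein, had log2 levels of 3.58, 4.04 and 3.24 at LPS 4 d, 3.99, 4.24 and 3.92 at LPS 1 d, and 4.37, 3.17 and 4.02 after PBS. The groups overlapped, with the highest and the lowest value both among the PBS arrays. The log2 change of *Ngp* was −0.23 at 4 d (95% interval −0.91 to 0.44, adjusted p = 0.748 from limma) and 0.19 at 1 d compared to PBS (95% interval −0.48 to 0.86, adjusted p = 0.815 from limma), and −0.43 between the times (95% interval −1.10 to 0.24, adjusted p = 0.603 from limma). *Ltf*, which encodes the iron-binding protein lactoferrin, had log2 levels of 3.56, 3.59 and 3.07 at LPS 4 d, 3.92, 3.56 and 3.30 at LPS 1 d, and 3.45, 3.86 and 3.72 after PBS. Again the groups overlapped, and 6 of the 9 arrays were above background. The log2 change of *Ltf* was −0.27 at 4 d (95% interval −0.71 to 0.17, adjusted p = 0.539 from limma) and −0.08 at 1 d compared to PBS (95% interval −0.52 to 0.36, adjusted p = 0.883 from limma). These upper bounds of the fitted changes lie far under the 1 d changes of the calprotectin genes on the same log2 scale. With levels this near background, they do not bound the change in message.

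*Camp*, which encodes the antimicrobial peptide precursor cathelicidin, had log2 levels of 2.62, 2.96 and 2.94 at LPS 4 d, 2.94, 3.25 and 2.77 at LPS 1 d, and 2.79, 3.02 and 2.94 after PBS. *Mpo*, which encodes myeloperoxidase, had 2.58, 2.79 and 2.47 at LPS 4 d, 2.47, 2.36 and 2.11 at LPS 1 d, and 2.60, 2.28 and 2.56 after PBS. *Elane*, which encodes neutrophil elastase, had 2.67, 2.64 and 2.12 at LPS 4 d, 2.75, 2.64 and 2.09 at LPS 1 d, and 2.74, 2.64 and 2.66 after PBS. For these 3 genes all 9 arrays were below background, so no fold is given, and the arrays cannot show whether a lower level of message was present. Their adjusted p values from limma lay between 0.376 and 0.98, and the 1 value under 0.05 before adjustment among the 5 early granule genes was that of *Mpo* between the times, where both groups were at background. The 5 early granule genes had median log2 changes of −0.21 for LPS 4 d against PBS, −0.08 for LPS 1 d against PBS and −0.15 for LPS 4 d against LPS 1 d, and with levels raised to background all 3 medians were 0. For 0 of the 5 did any pair of groups not overlap.

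Other granule genes were then examined. For these and the later lists, the shares of all genes called higher than PBS were 4.21% at 4 d and 3.86% at 1 d. The shares called lower than PBS were 0.205% at 4 d and 0.532% at 1 d. Between the times 1.37% of all genes were called lower at 4 d and 1.84% higher. Of 4 further azurophil and early granule genes, *Prtn3*, *Ctsg*, *Ms4a3* and *Fcnb*, 0 were called in any comparison, and with levels under background raised to it the median change was 0 in each. *Ctsg*, *Ms4a3* and *Fcnb* were below background on all 9 arrays, so these medians cannot show whether their messages changed. *Prtn3* lay near background, with log2 means of 3.78 at LPS 4 d, 3.48 at LPS 1 d and 3.65 after PBS. Of 8 further specific and gelatinase granule genes, LPS 4 d had 5 called higher than PBS, LPS 1 d had 6 called higher than PBS, and 2 were called lower at 4 d than at 1 d. With levels raised to background, the median log2 change was 0.80 for LPS 4 d against PBS, 2.62 for LPS 1 d against PBS and −1.24 for LPS 4 d against LPS 1 d. *Lcn2*, which encodes an iron-scavenging lipocalin, changed by 5.26 at 4 d (adjusted p = 0.00124 from limma) and 6.99 at 1 d compared to PBS (adjusted p = 0.000174 from limma). These changes of *Lcn2* were 4.62 at 4 d and 6.36 at 1 d without PBS replicate 2, and 6.05 at 4 d and 7.78 at 1 d without PBS replicate 3. *Chil3*, which encodes a chitinase-like protein, was at least 2.52-fold higher at 4 d and at least 21.4-fold higher at 1 d than after PBS, and *Hp*, which encodes haptoglobin, was at least 1.95-fold higher at 4 d and at least 10.4-fold higher at 1 d. *Chil1*, which encodes another chitinase-like protein, changed by 2.74 at 4 d and 4.00 at 1 d against PBS. The *Hp* call at 4 d was lost without LPS 4 d replicate 1 or 3, or any PBS array (adjusted p up to 0.116 from limma), and the fall of *Hp* between the times without LPS 4 d replicate 3 (adjusted p = 0.0556 from limma), which left 1 gene of this list called lower. *Lcn2*, *Chil3*, *Hp* and *Chil1* are made by reactive astrocytes or macrophages too, so the list is not particular to neutrophils. Of the other 4 genes, *Mmp9*, which encodes gelatinase B, changed by 1.93 at 1 d compared to PBS (adjusted p = 0.00955 from limma) and was not called at 4 d. *Pglyrp1*, which encodes a peptidoglycan recognition protein, was at least 1.55-fold higher at 4 d (adjusted p = 0.00193 from limma) and at least 2.09-fold higher at 1 d (adjusted p = 0.000231 from limma). *Olfm4* was not called, and *Cd177*, a surface protein of mouse neutrophils, had all 9 arrays below background.

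Most genes of the mature neutrophil surface and cytosol were called higher at 1 d. Of 19 analysed of 26 listed, 5 were called higher than PBS at 4 d and 14 at 1 d, and 8 were called lower at 4 d than at 1 d. With levels raised to background, the median log2 change was 0.05 for LPS 4 d against PBS, 1.83 for LPS 1 d against PBS and −1.14 for LPS 4 d against LPS 1 d. The decoy receptor gene *Il1r2* had log2 levels of 4.00, 3.59 and 3.44 at LPS 4 d, 6.32, 7.75 and 6.26 at LPS 1 d, and 3.04, 3.39 and 3.63 after PBS, and it changed by 3.42 at 1 d compared to PBS (adjusted p = 0.000668 from limma) and by −3.10 between the times (adjusted p = 0.0026 from limma). LPS 1 d was separate from both other groups, and LPS 4 d overlapped PBS. The myeloid receptor gene *Trem3* was at background on all LPS 4 d and PBS arrays and was at least 3.62-fold higher at 1 d than after PBS (adjusted p = 0.000132 from limma) and at least 3.62-fold lower at 4 d than at 1 d (adjusted p = 0.000502 from limma). The chemokine receptor gene *Cxcr2* was also at background on all LPS 4 d and PBS arrays, and on LPS 1 d replicate 1. It was at least 1.95-fold higher at 1 d than after PBS (adjusted p = 0.0431 from limma). Its fall between the times was not called (adjusted p = 0.0964 from limma). *Wfdc21*, a protease inhibitor-like gene, was at least 11.3-fold higher at 1 d than after PBS (adjusted p = 5.05e-05 from limma) and changed by −3.31 between the times (adjusted p = 0.00106 from limma). *Fpr2*, which encodes a formyl peptide receptor shared with macrophages, and *Clec4d*, which encodes a C-type lectin, were also called higher at 4 d than after PBS, *Fpr2* by 3.27 on the log2 scale (adjusted p = 0.000625 from limma) and *Clec4d* at least 6.14-fold (adjusted p = 0.00209 from limma). *Csf3r*, which encodes the receptor of G-CSF, changed by 1.55 at 4 d and 1.82 at 1 d against PBS, with calls at both times. *Slpi*, a secreted inhibitor of leukocyte elastase, changed by 1.39 at 4 d and 3.40 at 1 d, and *Clec4e*, which encodes another C-type lectin, was at least 1.55-fold higher at 4 d and at least 8.82-fold higher at 1 d. As the mean of its probe sets *Clec4e* had fitted changes of 0.89 at 4 d and 2.63 at 1 d, against 1.70 at 4 d and 4.28 at 1 d for the single probe set. The count of 5 at 4 d was 3 without LPS 4 d replicate 3, PBS replicate 2 or PBS replicate 3, where *Slpi* and *Clec4e* were no longer called. The 4 d call of *Slpi* was also lost without LPS 4 d replicate 1, and that of *Clec4e* when PBS replicate 1 or either of LPS 1 d replicates 1 and 3 was left out (adjusted p up to 0.112 from limma). Which cells carried the messages called at 4 d was not tested.

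**Figure D4:**
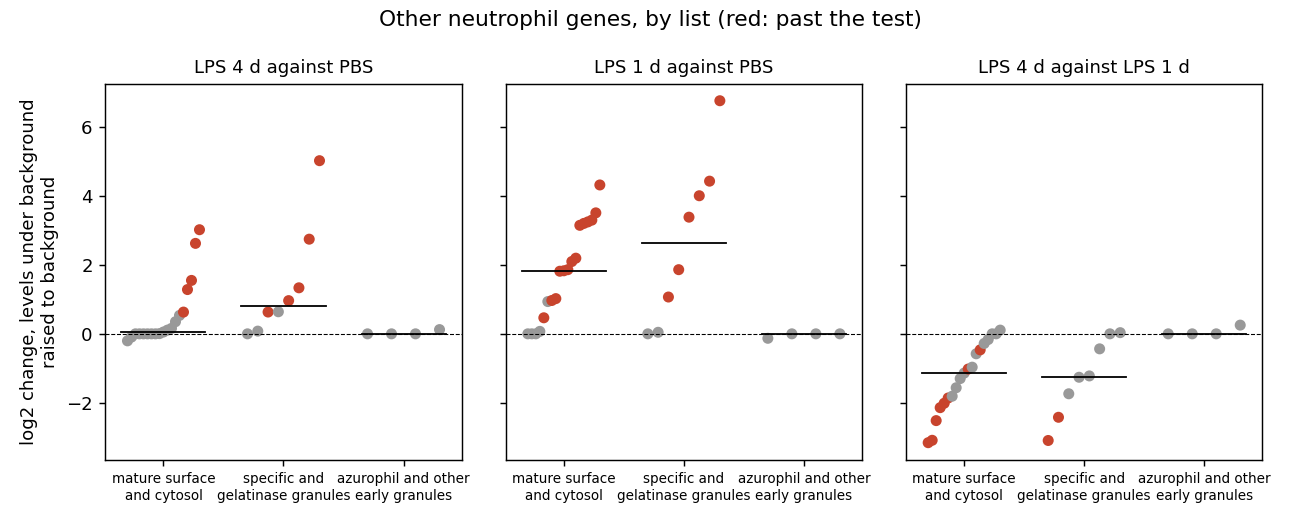
Log2 changes of the other neutrophil genes in the 3 comparisons, 1 point per gene, with levels under background raised to background; red marks a called gene and the horizontal bar is the median of the list. Most mature genes and most specific and gelatinase granule genes lie above 0 at 1 d, while the 4 azurophil and other early granule genes lie at or near 0 in all panels. Of these, *Ctsg*, *Ms4a3* and *Fcnb* were below background on all arrays, which places them at 0.

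Some receptors of calprotectin and regulators of granulocyte genes were called higher at both times. Of 7 genes for calprotectin receptors and their signalling, LPS 4 d had 4 and LPS 1 d had 3 called higher than PBS. *Cd14*, a co-receptor of TLR4, changed by 2.90 at 4 d (adjusted p = 8.58e-05 from limma) and 3.86 at 1 d compared to PBS (adjusted p = 1.5e-05 from limma), and *Tlr4* itself was at least 1.30-fold higher at 4 d and at least 1.20-fold higher at 1 d than after PBS. The *Tlr4* call at 1 d was lost without LPS 1 d replicate 2 or 3 or any PBS array (adjusted p up to 0.0791 from limma), and the count of 4 at 4 d was 2 when LPS 4 d replicate 1 or PBS replicate 1 was left out, where *Ly96* and *Myd88* were no longer called. *Ly96*, which encodes the TLR4 partner MD-2, changed by 1.23 at 4 d and by 0.68 at 1 d (not called), and *Myd88*, a signalling adaptor, changed by 0.90 at 4 d and 1.72 at 1 d against PBS. The *Myd88* call at 4 d was also lost without LPS 4 d replicate 3 (adjusted p = 0.0549 from limma). *Ager*, which encodes the receptor RAGE, and *Cd36* were below background on all 9 arrays. *Bsg*, the most abundant gene of the list, was called in no comparison. It changed by 0.26 at 4 d and by −0.32 at 1 d against PBS. Between the times it changed by 0.58, under the fold threshold (adjusted p = 0.00377 from limma). Of 8 granulopoiesis regulators, each time had 5 called higher than PBS. *Csf3*, which encodes the granulocyte growth factor G-CSF, was called higher at 1 d, with a log2 change of 2.90 against PBS, and had a change of −0.05 at 4 d against PBS and of −2.95 between the times (adjusted p = 0.000896 from limma). *Cebpd*, a C/EBP factor induced in inflammation, was called at both times, with 2.44 at 4 d and 3.61 at 1 d against PBS. *Cebpa*, a C/EBP factor of early granulocyte commitment, was called higher at 4 d with a change of 1.26, while its change of 0.58 at 1 d was under the fold threshold and was called when LPS 1 d replicate 2, PBS replicate 1 or PBS replicate 2 was left out. *Spi1*, which encodes PU.1, changed by 1.80 at 4 d and 1.56 at 1 d against PBS, *Runx1* by 2.25 at 4 d and 1.45 at 1 d, and *Cebpb* by 0.97 at 4 d and 2.07 at 1 d, and all 3 were called at both times. As the mean of its probe sets *Runx1* changed by 0.84 at 4 d and by 0.54 at 1 d, where it was no longer called. Between the times, by the probe sets used, *Runx1* (0.80) and *Cebpa* (0.68) were called higher at 4 d. *Cebpd* (−1.17), *Cebpb* (−1.10) and *Csf3* were called lower, and *Spi1* (0.24) was not called. The cells that carried the regulators cannot be told in bulk tissue, and formation of granulocytes was not tested.

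Genes of protease inhibition and histamine handling were set beside the granule genes. Of 7 inhibitors of granule proteases, 4 were called higher at each time compared to PBS, among them *Timp1*, an inhibitor of metalloproteinases, with log2 changes of 3.47 at 4 d (adjusted p = 0.0012 from limma) and 6.09 at 1 d (adjusted p = 3.41e-05 from limma), and *Serpina3n*, whose human counterpart inhibits cathepsin G, with 3.74 at 4 d and 4.95 at 1 d. *A2m*, which encodes a broad protease trap, changed by 2.62 at 4 d and 3.99 at 1 d against PBS. *Slpi*, counted here too, is also in the list of mature neutrophil genes above. Between the times 4 of the 7 were called lower, 0 in the ordinary analysis without moderation, and 2 when either LPS 4 d replicate 3 or LPS 1 d replicate 2 was left out. *Serpinb1a*, an inhibitor of neutrophil serine proteases named here after its value was seen, was called lower at 1 d than after PBS (−1.32, adjusted p = 0.00272 from limma). Of 5 histamine handling genes, 0 were called in any comparison. Before adjustment the p was under 0.05 for 0 of them at 4 d against PBS. It was so at 1 d for *Hrh3*, a histamine receptor gene, with a higher level than after PBS (of all genes 9.4% were higher and 8.43% lower at that threshold), and between the times for *Hrh3* and *Hnmt*, which encodes a histamine-degrading enzyme, with lower levels at 4 d (of all genes 7.12% were lower and 9.18% higher). *Hrh4* also had such a p at 1 d and between the times, but all 9 of its arrays were at background.

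Marker genes of other cells were also examined. The summed linear level of 6 monocyte markers was 574.4 to 736.5 at LPS 4 d, 518.3 to 629.3 at LPS 1 d and 230.0 to 272.5 after PBS, and 4 of the 6 were called higher at each time. The largest part of the sum was *Fn1*, with linear means of 336.3 at LPS 4 d, 229.4 at LPS 1 d and 131.1 after PBS. *Ccr2* was called in no comparison, with log2 means of 3.58 at LPS 4 d, 3.33 at LPS 1 d and 3.16 after PBS, near or below background. Both *Plac8* (log2 change −2.37, adjusted p = 0.00011 from limma) and *Ms4a4c* (−1.06, adjusted p = 0.00783 from limma) of this list were called lower at 4 d than at 1 d. The most abundant genes of the list had higher levels at 4 d than at 1 d without a call, *Fn1* by 0.56 (adjusted p = 0.0988 from limma) and *F13a1* by 0.91 (adjusted p = 0.132 from limma), and for both the arrays did not overlap. The summed level of 6 macrophage markers was 1355 to 1836 at LPS 4 d, 455.7 to 496.7 at LPS 1 d and 237.3 to 246.5 after PBS, so it was highest at the time when the calprotectin genes had fallen. *Adgre1* was its largest part at both times after LPS. The linear means of *Adgre1* were 722.1 at LPS 4 d, 228.0 at LPS 1 d and 37.9 after PBS. At 1 d against PBS *Adgre1*, *Cd68* and *Ms4a7* were called higher. *Mrc1* was called lower (−0.80, adjusted p = 0.0208 from limma), and *Csf1r* (0.14) was not called. *Cd163* was at background in all groups. The other 5 were called higher at 4 d than after PBS. The summed level of 5 microglia markers was 840.5 to 955.4 at LPS 4 d, 154.1 to 300.1 at LPS 1 d and 395.4 to 447.5 after PBS. The most abundant of the 5 at 4 d was *Fcrls*, with linear means of 507.7 at LPS 4 d and 107.3 after PBS. *Fcrls* (log2 change 2.23) and *Tmem119* (1.12) were called higher at 4 d than after PBS, while *P2ry12* (−0.47), *Gpr34* (−0.13) and *Sall1* (0.51) were not called. The 9 red cell and platelet markers, a sign of blood left in the tissue, summed to 268.4 to 366.5 at LPS 4 d, 477.5 to 858.7 at LPS 1 d and 452.1 to 543.5 after PBS. The highest of these sums was on LPS 1 d replicate 2, the array with the highest *S100a8*, *S100a9*, *Mmp8* and, by the probe set used, *Hdc*. The other arrays did not keep this order. Within LPS 1 d the sum was 598.4 on replicate 1 and 477.5 on replicate 3, where both calprotectin genes were higher. Among the PBS arrays the sum was highest on replicate 2 (543.5), which had the lowest calprotectin levels. Within LPS 4 d it was lowest on replicate 1 (268.4), which had the highest. At background in all groups were 4 of the 9 markers. The haemoglobin genes *Hbb-b2* and *Hba-a1* were called lower at 4 d than at 1 d, at −1.35 (adjusted p = 0.0288 from limma) and −1.47 (adjusted p = 0.0361 from limma). These were the most abundant genes of the list, and the list did not move as one. *Pf4* had a higher level at 4 d than at 1 d without a call (1.51, adjusted p = 0.0522 from limma), and its arrays did not overlap. *Itga2b* had a lower level at 4 d, also without a call (−0.37). All 5 eosinophil markers were at background in each group, *Siglecf* included, which passed the test between the times (adjusted p = 0.0289 from limma). The part of monocytes and of residual blood in the calprotectin levels was not tested.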

How the data were processed

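RNA of the injected hemisphere was measured on 9 arrays in 3 groups of 3. The authors deposited log2 values per probe set of Affymetrix HT mouse genome arrays, made by robust multi-array averaging (RMA) in Affymetrix Expression Console (version not given in the sources used here). Background correction and normalization are theirs and were not repeated. Control entries (104) were removed, and the model was run on 45037 probe sets, of which 28898 have 1 gene symbol, 551 several and 15588 none. The probe set with the highest mean over the 9 arrays stood for each of 17097 genes. Linear levels are 2 raised to the log2 value.

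A model with a mean per group was fitted in R 4.3.3 by limma 3.58.1 and moderated by empirical Bayes (9.02 degrees of freedom in all), and p values were adjusted over the whole table. It was tested on simulated data first. With 3 arrays against 3, an exact permutation test of a single gene cannot give a p below 0.1, and none was used. The number of arrays limits the precision, and no scan batch was known. Where all arrays of the dimmer group were at background, its values were raised to background and the fold is a bound. Where both groups were, no fold is given.

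Members, gene lists and tests were chosen with earlier results of these data known. The rule for naming genes was all members, up to 4 called genes with the largest change per related list and comparison, the most abundant markers of other cells, and the 5 genes most correlated with *S100a9*. *Cd177*, *Mmp9*, *Pglyrp1*, *Olfm4*, *Ifitm6*, *Stfa2l1*, *Trem1*, *Hnmt*, *Hrh3*, *Hrh4*, *Ager*, *Ms4a4c*, *Serpinb1a*, *Prtn3*, *Ctsg*, *Ms4a3*, *Fcnb* and the mast cell markers at background were named outside it, after their values were seen. So were *Ccr2*, *Sall1*, *Gpr34*, *Itga2b*, *Bsg*, *Cd36*, *Cxcr2*, *Mrc1*, *Csf1r* and *Cd163*. Promoters are from the RefSeq table for build GRCm38.p6, in which all 10 genes matched. Tables and figures were made with Python 3.11.15, pandas 2.3.3, scipy 1.17.1 and matplotlib 3.10.9. Alternatives covered moderation, groups fitted, low-signal filter, replicate number, centring, fold threshold, probe set choice and each array left out.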

Additional observations from a re-analysis of the deposited data

Results flagged for a closer look

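The genes below are the members and the named genes of the related lists for which the test of LPS 4 d against LPS 1 d itself passed, so that the effect compared to PBS differed between the times. Among the members these were *S100a9* (log2 change −3.82), *S100a8* (−3.09) and *Mmp8* (−2.20, with the LPS 4 d arrays at background). Among genes of neutrophil granules and surface they were *Wfdc21* (−3.31), *Il1r2* (−3.10), *Chil3* (−3.09), *Trem3* (−2.93, with the LPS 4 d arrays at background), *Clec4e* (−2.58), *Hp* (−2.42) and *Slpi* (−2.01), and *Ifitm6* (−2.30), *Stfa2l1* (−2.22, with the LPS 4 d arrays at background) and *Trem1* (−1.14, likewise), which the naming rule had left out, passed too. Among regulators and receptors they were *Csf3* (−2.95, with the LPS 4 d mean below background), *Cebpd* (−1.17), *Cebpb* (−1.10) and *Myd88* (−0.81), while *Runx1* (0.80) and *Cebpa* (0.68) were higher at 4 d. Among protease inhibitors they were *Timp1* (−2.62), *A2m* (−1.37) and *Serpina3n* (−1.21).

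Without moderation 12 of the 19 calls that the naming rule covers were lost, those of *S100a8*, *S100a9*, *Mmp8*, *Clec4e*, *Hp*, *Slpi*, *Cebpd*, *Myd88*, *Runx1*, *Timp1*, *A2m* and *Serpina3n* (adjusted p 0.0584 to 0.18). *Runx1* was also not called as the mean of its probe sets (0.30, adjusted p = 0.133 from limma). Several calls rest on single arrays, as given for *S100a8*, *Mmp8* and *Hp* above. By limma, *Cebpd* lost its call without replicate 1 of LPS 4 d or either of LPS 1 d replicates 2 and 3 (adjusted p 0.0554 to 0.062), and *Serpina3n* when the array left out was LPS 4 d replicate 3 or either of LPS 1 d replicates 2 and 3 (0.0591 to 0.0775). *Runx1* lost it without replicate 1 or 3 of LPS 4 d or replicate 2 or 3 of LPS 1 d (adjusted p from limma 0.0682 to 0.0744). *Myd88* lost it without any LPS 4 d array, replicate 2 or 3 of LPS 1 d, or PBS replicate 1 (adjusted p from limma 0.0635 to 0.117), and *A2m* without any 1 of the arrays except LPS 4 d replicate 1 and LPS 1 d replicate 3 (0.0711 to 0.121).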

How the results depend on the processing

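Results were recomputed under 9 leave-one-out fits and 9 other settings. The count of members called higher at 4 d than PBS, 0, was 1 (*S100a8*) with only probe sets above background, which left 6 members, and 1 (*S100a8*) with the mean of all probe sets of a gene, and it ranged over 0 to 2 when an array was left out. The count called lower at 4 d than at 1 d, 3, was 0 in the ordinary analysis without moderation, the nearest to the one-way analysis of variance in the methods, and 1 to 2 when an array was left out. It was 2 with an intensity trend and robust hyperparameters, where *S100a8* was not called (adjusted p = 0.0847 from limma), 2 with only the groups compared, where *Mmp8* was not called (adjusted p = 0.126 from limma), and 4 with the mean of all probe sets of a gene, where *Hdc* was added (adjusted p = 0.00602 from limma). The count called higher at 1 d stayed at 2 or 3. Arrays of the same number did not deviate together (9 pairs, correlations of deviations −0.035 to 0.022, against −0.034 to 0.044 for different numbers), so the number does not pair them. With a replicate block the count called lower between the times was 1 (*S100a9*). Changes near 0 reversed. Left-out arrays gave *Ngp* −0.58 to 0.024 at 4 d and −0.15 to 0.45 at 1 d compared to PBS, *Ltf* −0.25 to 0.063 at 1 d, and *Tlr4* −0.021 to 0.24 between the times, and *Tlr4* was −0.027 as the mean of its probe sets. Without moderation the genes called higher at 1 d among mature neutrophil genes were 9 and not 14, and those called lower between the times 4 and not 8; with an intensity trend and robust hyperparameters the second was 13. The cause of these shifts was not tested.

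The array signal limits the early granule genes: *Camp*, *Mpo* and *Elane* were below background throughout, and no statement on their messages under that level can be made. *Ngp* and *Ltf* lay near background, so the intervals of their fitted changes do not bound a change in message.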
